A study of Mus musculus with 3 samples.

Results

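The genes described here encode the enzymes and carriers of mitochondrial fatty acid oxidation and of ketone body use. The set holds 39 named genes, taken as a fixed list of symbols and matched to the gene names of the deposited transcript models. The match found 41 loci among the 48617 loci with transcript models. Of these, 39 were the genes themselves, 1 locus for each gene, and 2 were single-exon transcripts on the opposite strand that carried a member's name. RNA was measured in the heart ventricle of C57BL/6 mice at the embryonic days E10.5 and E13.5 and from adults 8 weeks of age. Each stage had 1 library of total RNA, stranded and paired-end, so the values carry no replicate error and no comparison of stages could be tested. How many animals went into a library is not given in the sources used here. The original purpose of the data was to catalogue long non-coding RNAs of the developing heart, and the messenger RNAs in the same libraries were compared here.

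Fatty acids are activated to acyl-CoA, carried into mitochondria on carnitine, and then shortened in repeated rounds of dehydrogenation, hydration, a second dehydrogenation and thiolysis. Each round releases acetyl-CoA for the TCA cycle and passes electrons to the respiratory chain. The adult heart draws most of its energy from this pathway, whereas the embryonic heart, which lives in low oxygen, relies more on glucose and lactate. Ketone bodies made by the liver enter the same acetyl-CoA pool in heart mitochondria.

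The promoters of 4 members are shown because their genes were among those that were higher in the adult and because they hold the letters that were searched. They were taken from RefSeq on the GRCm38.p6 build, each as 300 bases running from 250 bases before the RefSeq start to 50 bases after it and read 5′ to 3′ on the strand of the gene. Capitals mark matches to a searched motif on either strand. In Ucp3 and Slc25a20 the motif is a direct repeat, which is 2 copies of AGGTCA with 1 base between them and at most 2 mismatches in the 12 letters, the form that PPAR and RXR receptor pairs are known to bind. In Acadm it is a single copy of AGGTCA, and in Hadhb it is GGGCGG, the core of the GC box. The Ucp3 window lies at chr7:100472741-100473040 on the plus strand, the Slc25a20 window at chr9:108661886-108662185 on the plus strand, the Acadm window at chr3:153944594-153944893 on the minus strand and the Hadhb window at chr5:30155003-30155302 on the plus strand.
Ucp3: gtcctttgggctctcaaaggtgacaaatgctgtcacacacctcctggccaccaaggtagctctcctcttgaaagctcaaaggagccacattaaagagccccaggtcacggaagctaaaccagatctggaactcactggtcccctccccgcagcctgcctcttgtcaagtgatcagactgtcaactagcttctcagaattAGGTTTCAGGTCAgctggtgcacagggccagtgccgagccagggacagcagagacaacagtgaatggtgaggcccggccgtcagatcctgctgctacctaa
Slc25a20: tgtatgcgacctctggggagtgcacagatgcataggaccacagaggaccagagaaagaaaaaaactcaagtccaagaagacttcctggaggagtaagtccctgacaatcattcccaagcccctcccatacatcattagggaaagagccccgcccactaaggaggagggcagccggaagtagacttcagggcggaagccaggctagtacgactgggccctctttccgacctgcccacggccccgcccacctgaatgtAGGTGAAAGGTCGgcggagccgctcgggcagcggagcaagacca
Acadm: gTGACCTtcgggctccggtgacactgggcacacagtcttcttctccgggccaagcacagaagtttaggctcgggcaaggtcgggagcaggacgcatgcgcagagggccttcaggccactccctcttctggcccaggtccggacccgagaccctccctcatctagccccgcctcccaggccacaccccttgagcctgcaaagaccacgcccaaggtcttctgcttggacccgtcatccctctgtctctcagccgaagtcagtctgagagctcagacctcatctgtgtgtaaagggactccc
Hadhb: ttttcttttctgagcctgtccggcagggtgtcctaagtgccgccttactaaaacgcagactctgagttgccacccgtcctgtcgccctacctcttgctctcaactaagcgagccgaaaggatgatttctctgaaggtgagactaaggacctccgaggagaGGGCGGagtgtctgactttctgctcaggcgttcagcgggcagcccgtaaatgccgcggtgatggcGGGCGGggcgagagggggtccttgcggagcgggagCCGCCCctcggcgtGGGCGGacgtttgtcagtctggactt

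The Ucp3 match covered bases 200 to 212 of its window, just ahead of the RefSeq start. The Slc25a20 match covered bases 257 to 269, just after its RefSeq start. Both matches had 2 mismatches. The single copy in Acadm lay at bases 2 to 7, at the far end of the window. The RefSeq starts are not always those of the deposited models. The Acadm window, which begins at 153944594, lies wholly upstream of the deposited locus, whose start is at 153944440. The Ucp3 match lies inside the deposited locus, which begins at 100472848. Hadhb held 4 matches to GGGCGG, beginning at bases 161, 226, 261 and 275. RefSeq windows were found for 33 of the 39 members, 37 windows in all, and Decr1, Crat, Acaa2, Acot13, Acat1 and Cpt1b had none. A direct repeat was found in 4 genes (Ucp3, Slc25a20, Echs1 and Etfa), or 10.8% of the members' windows, against 3.86% of all 32851 RefSeq windows and 2.76% of the windows of expressed mRNA loci. The single copy AGGTCA, which also forms part of the longer letters TCAAGGTCA and can lie inside a direct repeat, occurred in 18.9% of the members' windows against 16.3% of all windows and 12.2% of those of expressed mRNA loci. It was found in Acadm, Acadvl, Acacb, Acsl6, Cpt1a, Echs1 and Ucp3. The longer TCAAGGTCA, a form bound by estrogen-related receptors, was found in Acsl6 alone, and in 0.423% of all windows and 0.277% of those of expressed mRNA loci. GGGCGG was present in 23 genes and 67.6% of the members' windows, a share near the 61.5% in windows of expressed mRNA loci and above the 35.7% in all windows. TATAAA was found in Acacb alone, against 13.6% of all windows and 7.44% of those of expressed mRNA loci. CACGTG, the E-box, was found in 0 of the 37 windows, against 7.15% of all windows and 9.80% of those of expressed mRNA loci. These counts describe letters in short windows, and no binding was measured.

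The stages are given in the order E10.5, E13.5 and adult wherever 3 values stand together. Levels are given as FPKM, the fragments assigned to a gene scaled to the length of its exons and to the mapped fragments of the library, so that they can be compared between genes. All 39 members were detected in each of the 3 libraries. The median member stood at 31.9 FPKM at E10.5, 42.5 FPKM at E13.5 and 129.6 FPKM in the adult, while the median expressed mRNA locus stood at 9.92, 10.3 and 6.94 FPKM. The set was therefore already well above the typical gene in the embryo and moved further from it in the adult. Ranked among the 12569 expressed mRNA loci, which are those with at least 1 FPKM in a library, the median member lay at percentile 83.2, 85.8 and 97.4 at the 3 stages in order. At or above percentile 90 there were 14, 17 and 27 members, and the number at 100 FPKM or more was 2, 9 and 23. As a share of the FPKM of all mRNA loci, the 39 genes took 0.475%, 0.508% and 2.32% at the 3 stages in order. This share is a ratio within a library, so scaling between libraries does not touch it.

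**Figure D1:**
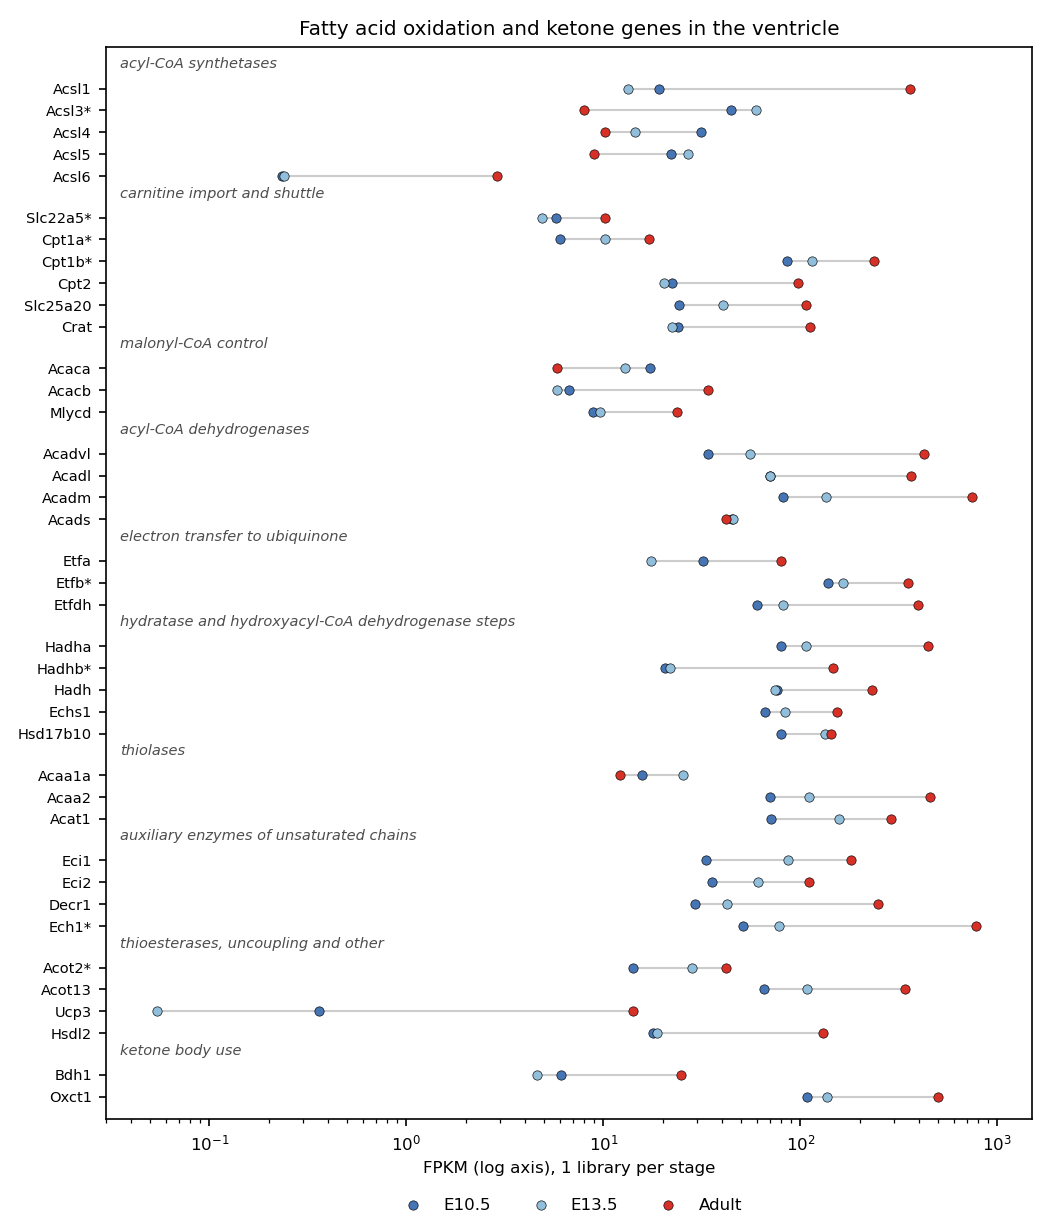
FPKM of each of the 39 genes (log axis) at each of the 3 stages, 1 library per stage and grouped by role, with points for the libraries and a line over their range; an asterisk marks a locus joined with another gene. Most adult points lie to the right of both embryonic points, and those of Acsl3, Acsl4, Acsl5, Acaca, Acads and Acaa1a lie to the left of both.

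Changes between stages are differences of log2(FPKM + 1), and a gene is counted as higher or lower where the difference reached 1, which is 2-fold on that scale. The added 1 FPKM understates the change of low genes. From E10.5 to E13.5 the set moved little. Eci1 and Acat1 were higher, which is 5.13% of the members against 5.89% of expressed mRNA loci, and Acsl4 was lower, which is 2.56% against 4.85%. The counts at this step were thus near the background. From E13.5 to the adult, 26 members were higher, or 66.7% against 13.0% of expressed mRNA loci, and 4 were lower (Acsl3, Acsl5, Acaca and Acaa1a), or 10.3% against 32.1%. From E10.5 to the adult, 31 members were higher, or 79.5% against 14.8%, and 4 were lower (Acsl3, Acsl4, Acsl5 and Acaca), or 10.3% against 27.3%. The members' counts for the steps that end in the adult were far from the background in both directions. Between E13.5 and adult, Acaca (-1.02) and Acaa1a (-1.01) lay just past the limit, and with median-of-ratios scaling they were at -0.47 and -0.42.

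The median change of the members was 0.33 over the first step, 1.63 over the second and 2.01 over the whole interval, on the log2(FPKM + 1) scale. The same medians over expressed mRNA loci were 0.17, -0.50 and -0.40. The median of the first step depended on the scaling, at 0.17 with median-of-ratios factors, 0.16 when centred on the median locus and 0.02 when mRNA sums without globin and mitochondrial loci were made equal. As deposited, the typical mRNA locus was lower in the adult and the typical member was higher. Rescaling the libraries by median-of-ratios factors brought the median locus to -0.01 between E10.5 and the adult and that of the members to 2.47. With that scaling, 33 members were higher and 3 were lower over this interval, and 32 were higher and 1, Acsl3, was lower between E13.5 and the adult. Over expressed mRNA loci the same scaling gave 20.6% higher and 17.6% lower for the whole interval and 21.8% and 18.0% for the second step. The share of higher genes among those past the limit between E13.5 and the adult went from 86.7% to 97.0%, and between E10.5 and E13.5 it went from 66.7% (2 higher, 1 lower) to 50.0% (1 higher, 1 lower).

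By direction alone, 24 members had higher values at E13.5 than at E10.5 and higher values again in the adult. The first step was above 0 in 71.8% of members and in 62.9% of expressed mRNA loci, which is not far apart. The second step was above 0 in 84.6% and 33.0%. The share of loci with higher values at both steps was not calculated. In 9 members (Acsl1, Slc22a5, Cpt2, Crat, Acacb, Etfa, Hadh, Ucp3 and Bdh1) the E13.5 value was the lowest of the 3. In 4 members (Acsl3, Acsl5, Acads and Acaa1a) the E13.5 value was the highest, and Acsl4 and Acaca had lower values at each later stage. Many first steps were small, and median-of-ratios scaling changed the sign of the first step in Acsl6, Mlycd, Acads, Hadhb and Hsdl2 and of the second step in Acsl4 and Acads. The first step of Acadl was 0.00 as deposited and -0.15 with that scaling. Of the 31 members that were higher in the adult than at E10.5, 28 had the larger step after E13.5. The exceptions were Acat1, Eci1 and Acot2. The same count was not made for other mRNA loci. The second step also spans a much longer time than the first, so its size says little about when levels changed.

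**Figure D2:**
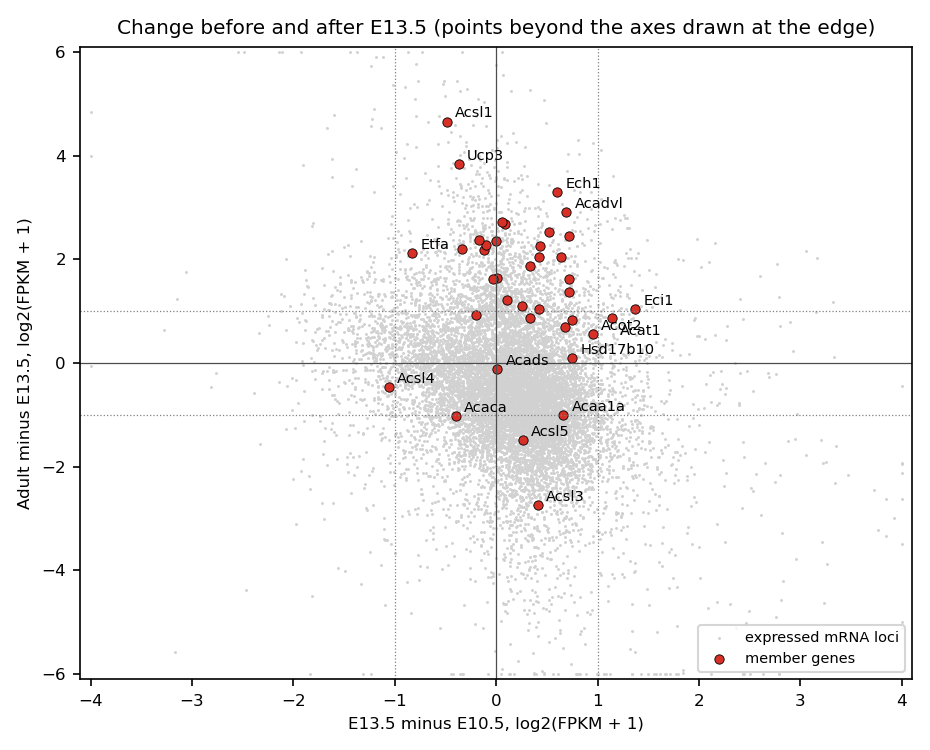
Difference of log2(FPKM + 1) from E10.5 to E13.5 (horizontal) and from E13.5 to the adult (vertical) for the 39 genes (red) and for expressed mRNA loci (grey), 1 library per stage, with dotted lines at a difference of 1 in either direction. Most red points lie above the upper dotted line and between the vertical dotted lines, with 26 members higher at the second step and 2 at the first.

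The acyl-CoA synthetases, which activate long-chain fatty acids, changed places. Acsl1, the main form of adult heart and fat (chr8:46471042-46536050, plus strand of mm10), stood at 19.2 FPKM at E10.5, 13.4 FPKM at E13.5 and 362 FPKM in the adult. That was a difference of 4.17 on the log2(FPKM + 1) scale from E10.5 to the adult, the largest among the members. Acsl3, which sits in the endoplasmic reticulum and on lipid droplets (chr1:78657825-78707743, plus strand, a locus joined with Utp14b), had 44.3, 59.3 and 8.01 FPKM, the largest decrease among the members at -2.33. Acsl4, which prefers arachidonic acid, had 31.3, 14.5 and 10.2 FPKM, and its change was -1.53. Acsl5 had 22.2, 26.8 and 8.93 FPKM and a change of -1.22, which was -0.79 with median-of-ratios scaling and so did not reach the limit there. The 3 forms that were lower in the adult were each above Acsl1 at both embryonic stages. Acsl6, a form best known from brain, was low throughout at 0.234, 0.240 and 2.90 FPKM. As shares of the summed FPKM of the 5 genes, Acsl1 took 16.4%, 11.7% and 92.4% at the 3 stages in order, while Acsl3 took 37.8%, 51.9% and 2.04%. The summed level itself was 117.2, 114.2 and 392.4 FPKM, so the adult total was almost wholly Acsl1.

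The carnitine shuttle, which moves acyl groups across the mitochondrial membranes, was higher in the adult at each of its mitochondrial steps. Cpt1b, the muscle form of the outer membrane transferase and the step that commits fatty acids to oxidation, was already high in the embryo at 85.4 FPKM at E10.5, 114 FPKM at E13.5 and 237 FPKM in the adult. Its locus (chr15:89416405-89429927, minus strand) is joined with Chkb and BC090627, whose reads cannot be told apart from it in these values. Cpt1a, the liver form of the same enzyme, had 6.00, 10.2 and 17.1 FPKM, in a locus joined with Mtl5. The 2 forms kept close to the same balance, with a Cpt1b to Cpt1a ratio of 14.2, 11.2 and 13.8 at the 3 stages in order. Slc25a20, the carnitine-acylcarnitine carrier of the inner membrane, had 24.3, 40.6 and 107 FPKM. Cpt2, which releases the acyl group inside, had 22.3, 20.4 and 97.0 FPKM. Crat, which exchanges short acyl groups with carnitine, had 23.9, 22.2 and 111 FPKM. Between E10.5 and adult the change was 2.09 for Slc25a20, 2.07 for Cpt2 and 2.17 for Crat on the log2(FPKM + 1) scale, against 1.46 for Cpt1b. Slc22a5, the carnitine transporter of the cell surface, was the lowest of these genes in each library, at 5.76, 4.89 and 10.1 FPKM. Its change of 0.72 did not reach the limit as deposited and was 1.14 with median-of-ratios scaling, and its locus is joined with Slc22a21.

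Malonyl-CoA blocks the Cpt1 step, and the genes that make and remove it moved in different directions. Acaca, the cytosolic acetyl-CoA carboxylase that feeds fatty acid synthesis (chr11:84130079-84401748, plus strand), had 17.2 FPKM at E10.5, 12.8 FPKM at E13.5 and 5.81 FPKM in the adult. Acacb, the form held at the outer mitochondrial membrane beside Cpt1 (chr5:114146084-114250763, plus strand), had 6.66, 5.79 and 34.0 FPKM. The pair therefore crossed over, with an Acacb to Acaca ratio of 0.387, 0.451 and 5.85. Mlycd, the decarboxylase that removes malonyl-CoA, had 8.84, 9.65 and 23.6 FPKM. It stood above Acacb in the embryo and below it in the adult, with a Mlycd to Acacb ratio of 1.33, 1.67 and 0.695.

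**Figure D3:**
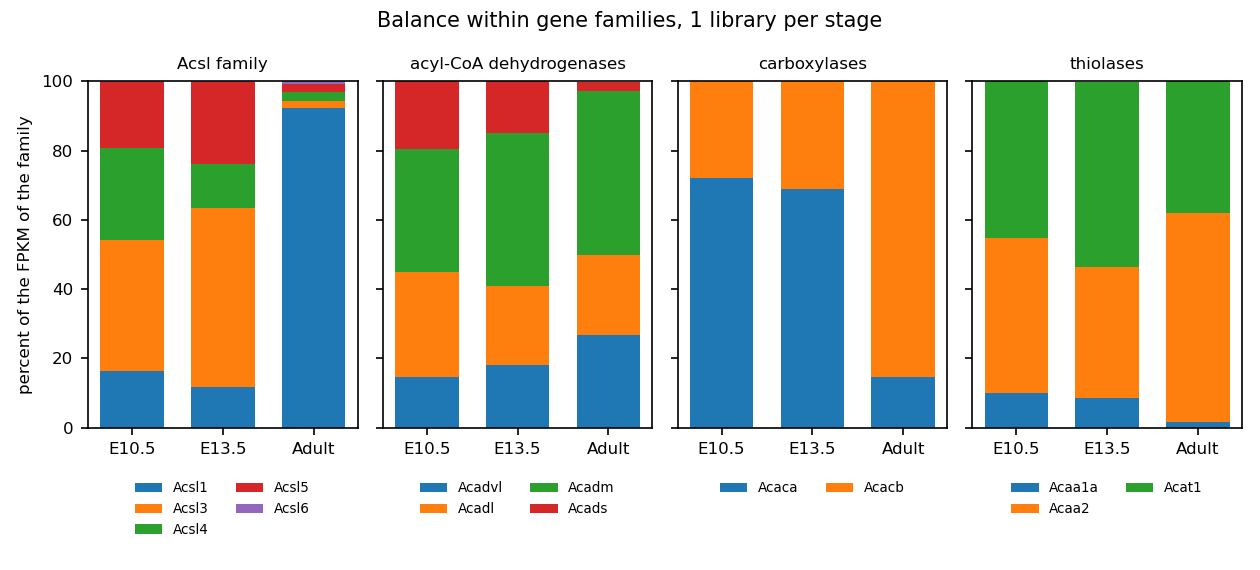
Stacked bars of each gene's percent of the summed FPKM of its family at each of the 3 stages, 1 library per stage, for the Acsl synthetases, the acyl-CoA dehydrogenases, the acetyl-CoA carboxylases and the thiolases. Acsl1 fills 92.4% of the adult Acsl bar, Acacb 85.4% of the adult carboxylase bar, and Acads 2.67% of the adult dehydrogenase bar.

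The acyl-CoA dehydrogenases open each round of oxidation and differ in the chain length they accept. Acadvl, the very long chain enzyme of the inner membrane (chr11:70010183-70015416, minus strand), had 33.9 FPKM at E10.5, 55.3 FPKM at E13.5 and 422 FPKM in the adult. Acadl, the long chain enzyme, had 69.9, 70.1 and 364 FPKM. Acadm, the medium chain enzyme whose RefSeq window is shown above (deposited locus chr3:153922359-153944440, minus strand), had 81.9, 135 and 745 FPKM. These 3 were higher in the adult than at E10.5 by 3.60, 2.37 and 3.17 on the log2(FPKM + 1) scale. Acads, the short chain enzyme, was the exception, at 45.0, 45.3 and 42.0 FPKM, with a change of -0.10 that was 0.36 with median-of-ratios scaling. Its share of the summed level of the 4 genes was 19.5%, 14.8% and 2.67%. The Acadm to Acads ratio was 1.82, 2.98 and 17.7. The summed level of the 4 genes was 230.7, 306.1 and 1574 FPKM, which was 6.82-fold higher in the adult than at E10.5.

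Electrons taken by these dehydrogenases pass to the electron transfer flavoprotein, made of Etfa and Etfb, and on through Etfdh to ubiquinone. Etfa had 31.9 FPKM at E10.5, 17.5 FPKM at E13.5 and 80.0 FPKM in the adult, and Etfb, in a locus joined with Cldnd2, had 137, 164 and 353 FPKM. The 2 subunits were unequal at each stage, with an Etfb to Etfa ratio of 4.31, 9.40 and 4.42. Etfdh, the inner membrane oxidoreductase, had 60.4, 82.0 and 394 FPKM, and its change from E10.5 to the adult of 2.68 on the log2(FPKM + 1) scale exceeded the 1.30 of Etfa and the 1.36 of Etfb. Etfa had the lowest first-step value of the 31 members that were higher in the adult, at -0.83 on the same scale.

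The middle steps of the spiral are carried out by the trifunctional protein for long chains and by separate soluble enzymes for shorter ones. Hadha, its alpha subunit, had 80.0 FPKM at E10.5, 107 FPKM at E13.5 and 447 FPKM in the adult. Hadhb, its beta subunit with the thiolase activity, had 20.5, 21.9 and 146 FPKM. The subunits form a complex, and their mRNA levels kept an order rather than a fixed ratio, with a Hadha to Hadhb ratio of 3.90, 4.90 and 3.05. The genes lie head to head on chromosome 5, with RefSeq starts 273 bases apart, so the Hadhb window printed above covers most of the stretch between them. In the deposited models the Hadha locus (chr5:30117278-30155636, minus strand) overlaps the start of the Hadhb locus (chr5:30155258-30184583, plus strand, joined with Mir1960), and the library is stranded. Hadh, the 3-hydroxyacyl-CoA dehydrogenase for medium and short chains, had 75.7, 74.1 and 231 FPKM. Echs1, the short chain hydratase, had 66.2, 83.6 and 154 FPKM. Hsd17b10, a dehydrogenase of isoleucine breakdown that is also a subunit of mitochondrial RNase P, had 79.4, 134 and 143 FPKM. Its change from E10.5 to the adult, 0.85 on the log2(FPKM + 1) scale, did not reach the limit as deposited and was 1.31 with median-of-ratios scaling.

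Thiolases close each round. Acaa2, the mitochondrial medium chain thiolase, had 70.4 FPKM at E10.5, 110 FPKM at E13.5 and 457 FPKM in the adult, a change of 2.68 on the log2(FPKM + 1) scale. Acat1, the mitochondrial acetoacetyl-CoA thiolase that serves both ketone use and isoleucine breakdown (chr9:53580311-53610357, minus strand), had 70.7, 157 and 287 FPKM. Its first step of 1.14 was one of the 2 that reached the limit before E13.5, and it was 0.98 with median-of-ratios scaling. Acaa1a, the thiolase of peroxisomes, had 15.7, 25.4 and 12.1 FPKM, with a change from E10.5 to the adult of -0.35 that was 0.09 with median-of-ratios scaling. The near-identical Acaa1b could share reads with it. The ratio of the mitochondrial Acaa2 to the peroxisomal Acaa1a was 4.48, 4.34 and 37.7.

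The auxiliary enzymes, which handle double bonds of unsaturated fatty acids, had the largest fold increase of any role in summed level, from 148.9 and 267.9 FPKM in the embryo to 1315 FPKM in the adult, or 8.83-fold over E10.5, while the acyl-CoA dehydrogenases gained more in summed FPKM. Ech1, the dienoyl-CoA isomerase, had 50.9, 77.8 and 776 FPKM and was the highest member in the adult. Its locus (chr7:28824030-28841703, plus strand) is joined with Lgals4 and Lgals6. The fold of the adult over E10.5 was 15.3 for Ech1, against 8.49 for Decr1, 5.45 for Eci1 and 3.08 for Eci2. The fold of the summed level therefore leaned on this joined locus. Decr1, the dienoyl-CoA reductase, had 29.3, 42.5 and 248 FPKM. Eci1, an enoyl-CoA isomerase of mitochondria (chr17:24426683-24439316, plus strand), had 33.0, 86.7 and 180 FPKM, and Eci2, an isomerase of mitochondria and peroxisomes, had 35.7, 60.8 and 110 FPKM. The 4 genes differed in the size of each step. Eci1 had the largest first step of all members, 1.37 on the log2(FPKM + 1) scale, and a second step of 1.04, whereas Ech1 had a first step of 0.60 and a second of 3.30, and Decr1 had 0.52 and 2.52.

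Among the remaining genes, Acot13, a thioesterase of mitochondria, had 65.4 FPKM at E10.5, 108 FPKM at E13.5 and 338 FPKM in the adult. Acot2, a mitochondrial thioesterase in a locus joined with its close relative Acot1, had 14.2, 28.3 and 42.1 FPKM. Hsdl2, a dehydrogenase-like protein with a sterol carrier domain, had 17.9, 18.8 and 130 FPKM. Ucp3, the muscle uncoupling protein whose promoter is shown above (chr7:100472848-100486432, plus strand), had 0.361, 0.0543 and 14.1 FPKM. It was near the floor of detection in the embryo. From the smallest step between low FPKM values, its level rested on roughly 12, 4 and 476 fragments, so no fold against E13.5 is given. Acsl6 rested on roughly 16, 32 and 197 fragments, and the other 37 members rested on more than 200 in each library. These fragment counts are estimates and cover counting error only.

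Ketone body use was represented by Bdh1 and Oxct1 beside Acat1. Oxct1, which transfers CoA to acetoacetate and is the step that the liver lacks (chr15:4025741-4155344, plus strand), had 108 FPKM at E10.5, 136 FPKM at E13.5 and 503 FPKM in the adult. Bdh1, which oxidises beta-hydroxybutyrate (chr16:31422297-31458901, plus strand), had 6.12, 4.61 and 24.9 FPKM. Both were higher in the adult, by 2.21 and 1.86 on the log2(FPKM + 1) scale, and Oxct1 stood 17.7, 29.5 and 20.2 times above Bdh1. The levels of Oxct1 were among the highest of the set at both embryonic stages, at percentile 96.3 and 96.1 of expressed mRNA loci.

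Other pathways from lists of known genes are given for comparison, with counts over the genes of each list that were expressed. Among other mitochondrial acyl-CoA enzymes, 14 of 24 were higher and 1 was lower when the adult was set against E10.5, with a median change of 1.15. The genes with the largest changes were Acss1, a mitochondrial acetyl-CoA synthetase with 3.95, 3.99 and 87.1 FPKM, Acad11 with 8.39, 6.85 and 72.6 FPKM, and Nudt7 with 8.72, 12.2 and 51.4 FPKM. For propionyl-CoA disposal, which handles the ends of odd chains, 3 of 7 were higher and 0 were lower, with a median of 0.99. Mcee had 38.6, 68.7 and 157 FPKM, Mut had 29.9, 20.7 and 64.3 FPKM and Mmaa had 2.42, 4.34 and 9.80 FPKM. These lists do not separate compartments cleanly. The peroxisomal oxidation list was less shifted, with 4 of 17 higher, 1 lower and a median of 0.46. Among its largest changes were those of Phyh, the phytanoyl-CoA hydroxylase (34.8, 63.5 and 364 FPKM), and Scp2 (17.3, 22.1 and 80.2 FPKM). Carnitine supply had 3 expressed genes outside the set, of which 1 was higher, Slc22a4 with 0.814, 0.541 and 2.94 FPKM. Slc25a29 had 0.835, 0.964 and 1.94 FPKM, and Bbox1, which makes carnitine in liver and kidney, was listed at 0 before birth and had 0.0365 FPKM in the adult.

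Synthetic pathways did not share this shift. Of 12 genes of fatty acid synthesis, 1 was higher and 5 were lower, with a median of -0.46 that was -0.04 with median-of-ratios scaling. Scd2, in a locus joined with Scd3, Scd4 and Mir5114, had 170.5, 114 and 17.0 FPKM, and Elovl6, an elongase, had 13.0, 8.32 and 0.633 FPKM. The higher gene was Thrsp, at 0.471, 0.0971 and 14.9 FPKM. Ketone body synthesis and transport had 1 higher and 3 lower of 8, with a median of -0.34. Hmgcs1, the cytosolic synthase of cholesterol synthesis, had 83.5, 51.8 and 17.6 FPKM. Acat2, a cytosolic thiolase in a locus joined with Acat3, had 37.3, 19.9 and 1.87 FPKM.

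The TCA cycle and the respiratory chain, which use what oxidation delivers, were higher in the adult by less. In the TCA cycle 12 of 18 genes were higher and 0 lower in the adult, with a median change of 1.16, and in the respiratory chain the counts were 17 and 0 of 26 with a median of 1.25, against 2.01 for the members. Among the largest changes were those of Sucla2 (86.6, 125 and 415 FPKM) and Idh3b (127, 180 and 547 FPKM) in the first list. In the second they were those of Cox6c (434, 1024 and 1858 FPKM), Ndufv1 (112, 175 and 340 FPKM) and Uqcrb (198, 259 and 597 FPKM). The summed FPKM of the members was 57.6%, 59.9% and 114% of that of the TCA cycle list. Against the respiratory chain list it was 21.3%, 19.6% and 45.1%. Both ratios are within a library and both were level between the embryonic stages. In glycolysis 4 of 17 genes were higher and 8 were lower, with a median of -0.80 that was -0.37 with median-of-ratios scaling. The summed FPKM of the glycolysis list was 3139, 3982 and 3736, or 0.922%, 0.919% and 1.13% of the FPKM of mRNA loci, and the summed FPKM of the members went from 51.5% of that list at E10.5 to 206% in the adult. Its largest changes were those of Eno1 (108, 103 and 11.4 FPKM), Pgam1 (14.5, 15.5 and 1.00 FPKM) and Aldoc (8.18, 8.79 and 0.259 FPKM).

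**Figure D4:**
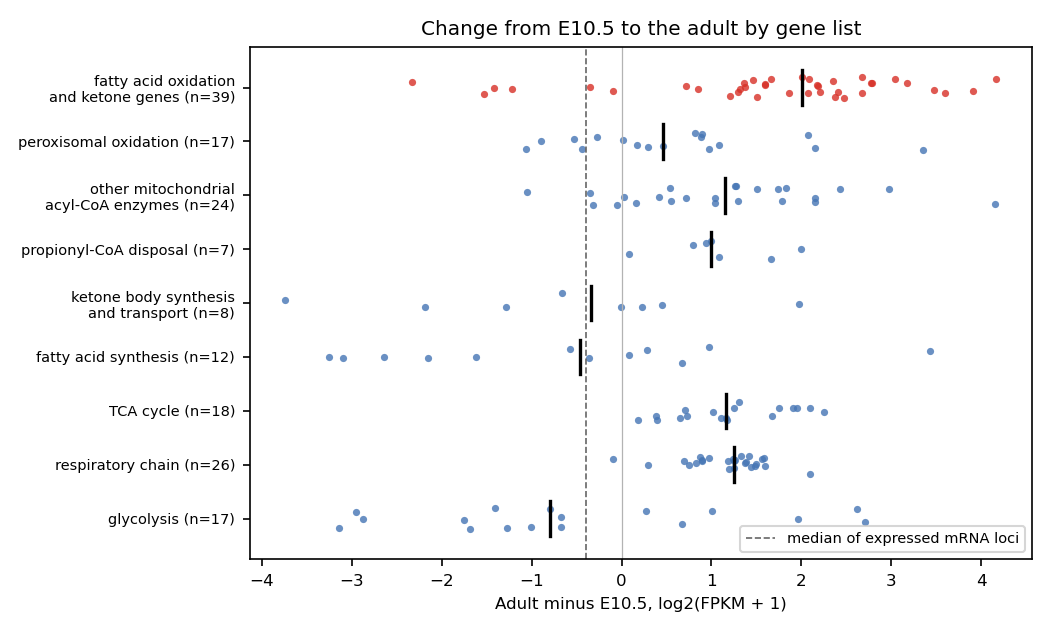
Difference of log2(FPKM + 1) between the adult and E10.5 for each gene (points) of the 39-gene set and of 8 other lists, counting only expressed genes, with the list median as a black bar and the median of expressed mRNA loci as a dashed line, 1 library per stage. The median bar of the 39 genes (2.01) lies furthest to the right. Next come the respiratory chain (1.25), the TCA cycle (1.16) and the list labelled other mitochondrial acyl-CoA enzymes (1.15).

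Markers of the cells that the tissue could hold moved as well, and in bulk tissue fewer cells of a type and less RNA per cell cannot be told apart. The 10 markers of ventricular cardiomyocytes were at 1 FPKM or more in every library, and their sum took 4.92%, 5.77% and 12.2% of the FPKM of mRNA loci. Mb, which encodes myoglobin, had 278, 228 and 8914 FPKM, Pln had 505, 745 and 4551 FPKM, and Tnni3, in a locus joined with 6030429G01Rik, had 533, 1137 and 4059 FPKM. These were the 3 largest changes of the list, and Mb alone made up most of the list's increase after E13.5. Of the 10 markers, 6 were higher and 0 were lower in the adult when set against E10.5, and 5 were higher and 0 were lower when set against E13.5. Tnnt2 had 626, 1522 and 3148 FPKM and Ryr2 had 73.1, 18.8 and 281 FPKM. Actc1 had 4487, 4646 and 3353 FPKM and Mybpc3 had 245, 383 and 286 FPKM, while Myl2, with 7790, 12217 and 11568 FPKM, Myl3, with 1087, 2238 and 2215 FPKM, and Tnnc1, with 1121, 1870 and 1892 FPKM, stayed near their E13.5 levels. Relative to the summed FPKM of these 10 markers, the sum of the members was 9.66%, 8.80% and 19.1%. Of the 8 adipocyte markers, 7 were under 1 FPKM in each library, with Adipoq at 0.359, 0.166 and 0.115 FPKM, Retn at 0.182 FPKM in the adult and listed at 0 before, and Plin1 listed at 0 throughout. The 8th, Cidea, had 0.974, 1.12 and 28.2 FPKM. Liver markers summed to 9.00, 24.0 and 1.61 FPKM and fast skeletal muscle markers to 54.0, 64.6 and 3.61 FPKM. Their leading genes were Afp (5.36, 10.7 and 0.0220 FPKM), Apoa1 (1.99, 2.22 and 0.0451 FPKM) and Apoa2 (0.475, 4.51 and 1.36 FPKM) for liver, and Mylpf (29.9, 8.69 and 1.46 FPKM), Tnni2 (17.5, 51.0 and 1.52 FPKM) and Tnnt3 (4.21, 3.47 and 0.563 FPKM) for muscle.

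The liver and fast skeletal muscle lists both had their lowest sum in the adult. Erythroid markers summed to 7150, 18080 and 206 FPKM, led in the embryo by Hbb-y at 4356, 15112 and 2.87 FPKM, with Hbb-bh1 at 1314, 366 and 0.0842 FPKM and Hba-x at 1057, 827 and 0.0946 FPKM, which are globins of the embryo. The adult sum was led by the adult globin Hba-a1, whose 2 loci had 382, 1533 and 129.6 FPKM and 10.1, 199 and 51.9 FPKM, and Alas2 had 18.2, 34.1 and 19.6 FPKM. The 4 atrial markers summed to 6382, 6766 and 40.9 FPKM, with Myl7 at 2453, 1935 and 0.719 FPKM, Myl4 at 2164, 2440 and 1.42 FPKM and Nppa at 1744, 2385 and 37.9 FPKM. These genes are also known to be active in the embryonic ventricle. Fibroblast markers summed to 252, 631 and 518 FPKM, with Col3a1 at 124, 211 and 88.3 FPKM, Dcn at 49.5, 75.9 and 351 FPKM and Postn at 25.8, 188 and 18.6 FPKM. Endothelial markers summed to 260, 185 and 265 FPKM, with Pecam1 at 46.5, 47.6 and 72.8 FPKM, Kdr at 48.1, 20.3 and 61.9 FPKM and Tek at 46.5, 40.4 and 25.0 FPKM. Macrophage markers, like most members, were higher in the adult, in all 6 cases, with sums of 38.9, 95.4 and 393 FPKM. Past the limit of 1, 4 of these 6 were already higher at E13.5 than at E10.5, against 2 of the 39 members. Among them C1qb had 1.29, 21.9 and 51.0 FPKM, Csf1r had 0.729, 6.01 and 24.4 FPKM and Emr1 had 0.511, 4.24 and 20.1 FPKM. The part that a change in cell types had in the members' values was not tested.

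Around the members' own starts, the deposited models placed an mRNA locus on the other strand within 3000 bp for 6 of 39, or 15.4%, against 16.3% of expressed mRNA loci. Other loci on the other strand were found for 4, or 10.3%, against 14.0%. The set was thus near the background in both. Beside the Hadha and Hadhb pair, the starts of Crat and Ppp2r4 were 70 bp apart, and Ppp2r4 had 33.0, 33.6 and 13.0 FPKM, and those of Acot13 and Tdp2 were 170 bp apart, with Tdp2 at 17.2, 25.0 and 9.40 FPKM. The starts of Etfdh and 4930579G24Rik (7.01, 8.77 and 0.816 FPKM) were 312 bp apart and those of Acaa1a and Myd88 (2.49, 4.66 and 8.46 FPKM) were 1254 bp apart. Crat, Acot13 and Etfdh were higher in the adult than at either embryonic stage, and their partners were lower. An unnamed single-exon transcript whose start was 224 bp from that of Acadl, at chr1:66863491-66864729 on the plus strand, had 0.104, 0.0595 and 1.98 FPKM. BC037032, which overlaps the start of the Oxct1 locus on the other strand, with the nearest pair of starts 978 bp apart, had 0.218, 0.489 and 1.19 FPKM. Both stood highest in the adult, as their neighbours did, but at levels under 2 FPKM. The antisense transcript named for Acsl5 (chr19:55295588-55297776, minus strand) had 0.679, 0.446 and 1.16 FPKM, and the one named for Acat1 (chr9:53581179-53582274, plus strand) had 1.96, 0.129 and 0.481 FPKM.

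Of the 39 member loci, 31 joined no other gene and 8 did (Acsl3, Slc22a5, Cpt1a, Cpt1b, Etfb, Hadhb, Ech1 and Acot2), which is given above with each. The loci held 160 transcript models, of which 70 matched a reference transcript and 90 were splice forms that did not, spread over 27 members. The values are per locus, so they do not show which form was measured.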

How the data were processed

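Ventricular RNA of 3 stages was measured, with 1 library per stage. The authors mapped reads to mm10 with TopHat2 and Bowtie, assembled transcripts with Cufflinks, guided by UCSC transcripts and unguided, and deposited FPKM per merged locus. Release numbers and options of these tools are not given in the sources used here. FPKM was used as deposited, and its columns sum to 601115, 808971 and 443471 over all loci, partly through non-coding RNA, which shifts every gene of a library alike. Members were matched by gene name to loci on the gene's own strand. Changes are differences of log2(FPKM + 1), counted past 1, set beside the 12569 mRNA loci with 1 FPKM or more in at least 1 library. No test was possible without replicates. The calculation was tested on simulated data. Depth per locus was estimated from the smallest step of FPKM times length in single-exon loci, about 13.8, 26.7 and 13.8 fragments per FPKM and kilobase for the stages in order. Promoter windows came from RefSeq (GRCm38.p6). All 39 members are named, and from each other list the 3 genes with the largest absolute change from E10.5 to the adult, except some that are not reported here; neighbours and antisense loci are further named by distance, and Plin1, Hba-a1, Alas2 and further cardiomyocyte markers were named after their values were seen. The members and lists were chosen with earlier results of these data known. Splice sites were checked against an annotation of the same build: 516 of 516 introns of matched member models were found there. These models already matched reference transcripts, so the check could hardly fail, and the 90 unmatched splice forms were not checked. Scaling, pseudocount, limits and joined loci were varied. Python 3.11.15, numpy 2.4.6, pandas 2.3.3, scipy 1.17.1 and matplotlib 3.10.9 were used.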

Additional observations from a re-analysis of the deposited data

How the results depend on the processing

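Of 93 recalculated values, 72 stayed and 21 moved. A count, share or ratio stayed if it was within 1.5 times the reported one. A median stayed if it was within the 95% interval of the median over the members. That interval reflects spread among genes, not among animals, and for the first step it is wide, at 0.01 to 0.60. A first-step median of 0.02 instead of 0.33 therefore still counted as stayed. A change of direction was scored for medians only, and 0 were reversed. First-step counts went from 2 higher and 1 lower to 1 higher and 2 lower with equal sums and with centring. With median-of-ratios scaling (factors 1.08, 1.21 and 0.785) 1 member was higher from E10.5 to E13.5 and 1 was lower from E13.5 to the adult, against 4.14% and 18.0% of loci, and the median change was 2.25 from E13.5 and 2.47 from E10.5 to the adult. With libraries set to equal sums without globin and mitochondrial loci, 1 was higher and 2 were lower from E10.5 to E13.5, and 2 were lower from E13.5 to the adult, against 3.38%, 8.65% and 23.6%. With changes centred on the median mRNA locus, 1 was higher and 2 were lower at the first step, 1 was lower at the second, against 3.95%, 7.13% and 17.9%, and the median from E10.5 to the adult was 2.40. With a pseudocount of 0.1, 2 were lower at the first step, against 7.54%. With a pseudocount of 10, 0 were lower at the first step, 1 at the second and 2 from E10.5 to the adult, against 0.851%, 12.2% and 9.44%. With a limit of 2 on the log2 scale, 0 were higher and 0 lower at the first step, 17 higher and 1 lower at the second, and 20 higher and 1 lower over the whole interval. The shares of expressed mRNA loci at that limit were 0.851% and 0.247%, 4.41% and 9.88%, and 5.59% and 8.10%. The cause of these moves was not tested beyond what each setting changes by construction. No paired analysis was possible because the libraries carry no replicate numbers. The depth estimate moves with the width of its bins and is approximate. It limits Ucp3 and Acsl6 in the embryo, and joined loci limit 8 members.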
